A study of Homo sapiens with 6 samples.

Results

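Zinc finger genes of chromosome 19 were taken as the genes of the expression table whose name starts with ZNF and a number and whose position is on chromosome 19. There were 249 of them among 20263 genes in the table, and they made up 249 of 514 genes named in this way. The libraries came from THP-1, a human monocytic cell line derived from an acute leukaemia, with 3 samples in which a short hairpin RNA knocked down GOT1 (shGOT1) and 3 with a hairpin labelled shNC, whose genotype is given as wt. GOT1 is the cytosolic aspartate aminotransferase, and the series addresses how its inhibition affects ferroptosis in acute myeloid leukaemia. The shGOT1 libraries share 1 cell name in the labels, so effects of that hairpin and of lower GOT1 cannot be told apart, and the labels give no culture conditions, time or agent for either group. The samples are named as biological replicates.

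Most proteins of this family carry an array of C2H2 zinc fingers, each a short loop held by a zinc ion, which read DNA in sequence. Many also carry a KRAB domain at the start of the protein, which recruits TRIM28 (KAP1) and, through it, the histone methyltransferase SETDB1 and heterochromatin proteins. They are best known as repressors of transposable elements, and their genes arose by repeated duplication and lie in tandem clusters on chromosome 19.

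GOT1 itself had 3.27, 2.87 and 3.33 TPM (a length-scaled transcript abundance that sums to the same total in each library) in the shGOT1 libraries, against 15.3, 16.7 and 16.3 TPM in the shNC libraries. Its log2 fold change was -2.45 ± 0.09 (SE, adjusted p = 1.26e-05, edgeR's quasi-likelihood test with Benjamini-Hochberg adjustment), so the labels hold for the targeted gene. Library totals ran from 26734767 to 39144890 counts for shGOT1 and from 26226977 to 28712260 counts for shNC. All 10 monocytic markers checked were at 1 TPM or more in every library, while CD3E and CD3G of T cells, MS4A1 of B cells, and EPCAM and CDH1 of epithelial cells were at 0 in all 6. The summed level of the monocytic list was 3647 to 3756 TPM in shGOT1, against 3885 to 4066 TPM in shNC, and that of the T cell list, of which 1 of 5 genes was at 1 TPM or more in every library, was 190 to 195 TPM in shGOT1, against 226 to 236 TPM in shNC. The B cell list, with 3 of 4 genes at that level, summed to 22.9 to 27.7 TPM in shGOT1, against 12.9 to 15.1 TPM in shNC, and the epithelial list, with 1 of 5, to 4.99 to 5.55 TPM in shGOT1, against 3.02 to 3.38 TPM in shNC. The erythroid list, with 2 of 5 genes at that level, summed to 3.90 to 4.97 TPM in shGOT1, against 5.11 to 6.93 TPM in shNC. The fibroblast list, with 0 of 5, summed to 0.296 to 0.551 TPM in shGOT1, against 0.191 to 0.239 TPM in shNC. The part of these lists in the results was not tested. All samples are labelled as the same cell line, THP-1. Fewer cells of a type and less RNA per cell cannot be told apart in bulk samples.

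Of the 249 genes, 218 passed the filter on low counts and were tested. The other 31 had no value above 0.459 TPM in any library, and 12 of these, such as ZNF560, ZNF626, ZNF676, ZNF729, ZNF681, ZNF229, ZNF665 and ZNF135, had a count of 0 in all 6. Among the tested genes the median level was 5.29 TPM, against 17.4 TPM over all genes tested, 48 had a mean of at least 10 TPM and 17 had a mean under 1 TPM. The most abundant were ZNF787, ZNF428, ZNF580, ZNF146 and ZNF274. ZNF787 had 74.3, 73.6 and 70.6 TPM in shGOT1, against 66.7, 70.2 and 70.9 TPM in shNC. ZNF274, which recruits SETDB1 to the ends of other zinc finger genes, had 43.9, 41.2 and 41.3 TPM in shGOT1, against 34.5, 35.1 and 38.2 TPM in shNC. None of these 5 genes passed the test on counts.

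The summed level of the family was 1788, 1751 and 1777 TPM in shGOT1, against 1673, 1665 and 1701 TPM in shNC. Its mean was 1772 ± 18.9 TPM in shGOT1 and 1680 ± 18.7 TPM in shNC (SD, n = 3 each), and the groups did not overlap. The log2 ratio of the summed TPM was 0.08 for these genes and also 0.08 for the 265 ZNF genes of other chromosomes. The family's share of all counts was 0.265 ± 0.00389% in shGOT1 and 0.252 ± 0.00156% in shNC (SD, n = 3 each), again a log2 ratio of 0.08. The median TPM of the family had a log2 ratio of 0.14. On log2(TPM + 1) the median difference over all genes tested was 0.09.

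A total of 33 genes of the family passed an adjusted p of 0.05, 19 of them higher and 14 lower in shGOT1 (edgeR's quasi-likelihood test with Benjamini-Hochberg adjustment over all 13735 genes tested). That was 15.1% of the 218 tested, against 44.6% of all genes tested. By direction, 21.9% of all genes tested were higher and 22.8% lower. Among the ZNF genes of other chromosomes, 72 of 232 passed (31.0%), and among the other genes of chromosome 19, 396 of 875 (45.3%). With limma on log2(TPM + 1) 24 genes of the family were higher and 5 lower, against 28.0% and 14.1% of all genes tested (42.1% in either direction). An unadjusted p under 0.05 (edgeR's quasi-likelihood test) was reached by 44 of the 218 genes of the family. The share of all genes tested at that level is not given. The TPM values of the groups did not overlap for 66 of the 218 genes (30.3%), against 55.2% of all genes tested. Leaving out 1 library gave 12, 9 and 10 rises without shGOT1 replicate 1, 2 and 3, and 13, 11 and 13 without shNC replicate 1, 2 and 3. The number of falls was 9 without shGOT1 replicate 2, 9 without shNC replicate 2 and 8 without shNC replicate 3.

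The fold changes of the family were centred on 0, as were those of all genes. The median log2 fold change was 0.01 for these genes and 0.00 over all genes tested, and the median size, without regard to sign, was 0.18, against 0.25 over all genes tested and 0.20 for the ZNF genes of other chromosomes. Only 5 genes of the family passed the test with a change of at least 2-fold, which 7.07% of all genes tested did. These 5 were ZNF30, ZNF541, ZNF780B and ZNF404, higher in shGOT1, and ZNF585A, lower.

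**Figure D1:**
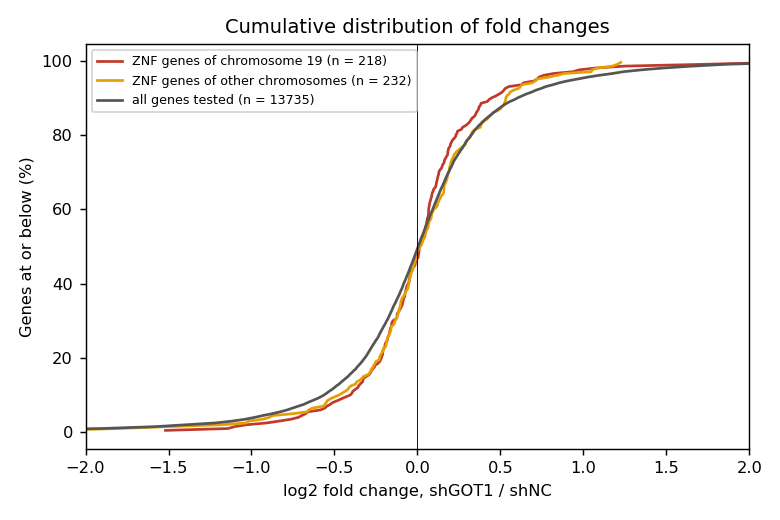
Cumulative share of genes (%, vertical axis) at or below each log2 fold change of shGOT1 over shNC (horizontal axis), for ZNF genes of chromosome 19 (n = 218), ZNF genes of other chromosomes (n = 232) and all genes tested (n = 13735). The family's curve is the steepest around 0 (median size 0.18, against 0.25 for all genes tested).

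The family is also counted less deeply than most genes. Its median count per library was 239.5, against 834.5 over all genes tested, and its median SE of a log2 fold change was 0.14, against 0.08. When all genes tested were divided into quartiles of mean count, a division made after the values were seen, 13% of 100 family genes in the lowest quartile passed, against 33.9% of all genes there. In the second quartile the share was 16% of 100 family genes, against 40.9%, and in the third 25% of 16, against 46.2%. The ZNF genes of other chromosomes had 32.3% of 65, 25.8% of 97 and 35.2% of 54 in these 3 quartiles. Both of the family's genes in the highest quartile were not past the threshold. The part that count depth plays in the lower share was not tested beyond this division.

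**Figure D2:**
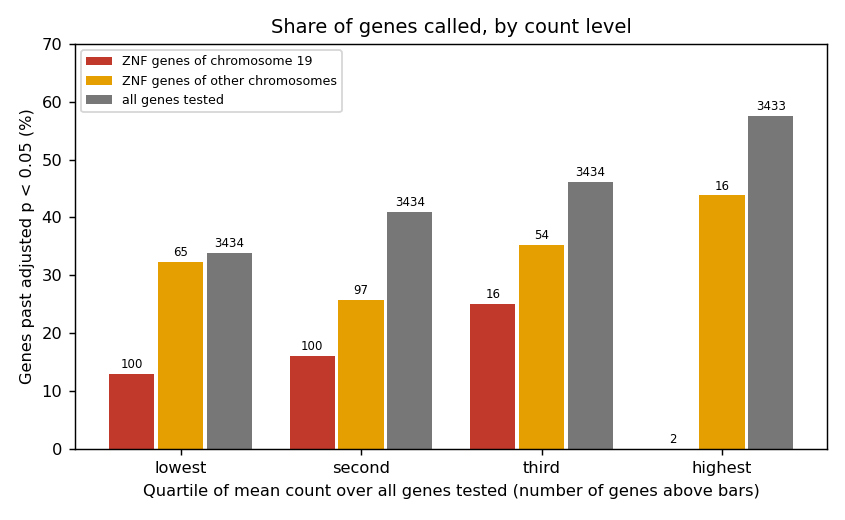
Share of genes past an adjusted p of 0.05 (%, vertical axis) by quartile of mean count (horizontal axis, limits at 210.6, 834.5 and 2094 counts), with the number of genes above each bar. In the 3 lower quartiles the ZNF genes of chromosome 19 have the lowest bar, at 13, 16 and 25%.

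The alternative settings and left-out libraries were run gene by gene for 11 of the 19 rises and 11 of the 14 falls. Of these 11 rises, 3 kept their call throughout, and the clearest was ZNF772, a KRAB gene with 10 fingers at 57466663 to 57477570 on the minus strand. It had 7.07, 7.25 and 7.10 TPM in shGOT1, against 3.05, 3.39 and 3.22 TPM in shNC. Every shGOT1 library was above every shNC library by a wide margin. The log2 fold change of its counts was 0.90 ± 0.12 (SE, adjusted p = 0.0017, edgeR with Benjamini-Hochberg adjustment). The table's span of ZNF772 overlaps an unnamed clone gene on the same strand, so reads of the pair may be mixed.

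ZNF175, also known as OTK18, was found in human macrophages as a factor that represses the HIV promoter, and has 14 fingers. It had 8.78, 9.27 and 10.01 TPM in shGOT1, against 6.13, 5.95 and 6.34 TPM in shNC. The groups were well apart, with a log2 fold change of 0.44 ± 0.07 (SE, adjusted p = 0.0033, edgeR with Benjamini-Hochberg adjustment). ZNF530, a KRAB gene with 13 fingers, had 13.5, 12.2 and 13.1 TPM in shGOT1, against 8.29, 8.01 and 7.42 TPM in shNC. Its counts were 263, 278 and 363 in shGOT1, against 190, 184 and 202 in shNC, and gave a smaller log2 fold change, 0.37 ± 0.09 (SE, adjusted p = 0.0146, edgeR with Benjamini-Hochberg adjustment), than the difference of 0.64 on log2(TPM + 1).

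Of the 11 falls run in the same way, ZNF524, ZNF581 and ZNF709 kept their call wherever a value was given. ZNF524, with 4 fingers and no KRAB pattern, had 19.7, 21.3 and 19.3 TPM in shGOT1, against 28.5, 28.6 and 26.6 TPM in shNC. All shGOT1 libraries were below all shNC libraries, and the log2 fold change was -0.59 ± 0.08 (SE, adjusted p = 0.00161, edgeR with Benjamini-Hochberg adjustment). ZNF581, also with 4 fingers and no KRAB pattern, had 28.7, 32.6 and 26.3 TPM in shGOT1, against 35.7, 36.8 and 34.7 TPM in shNC, a log2 fold change of -0.39. ZNF709, a KRAB gene with 19 fingers, was near the lower limit of the named genes, with 0.758, 0.808 and 0.808 TPM in shGOT1, against 1.03, 1.23 and 1.09 TPM in shNC. Its log2 fold change was -0.69 ± 0.14 (SE, adjusted p = 0.00878, edgeR with Benjamini-Hochberg adjustment). ZNF524 overlaps FIZ1 on the other strand, ZNF581 overlaps ZNF580 and CCDC106, and ZNF709 overlaps clone genes, so their counts may hold reads of these neighbours.

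**Figure D3:**
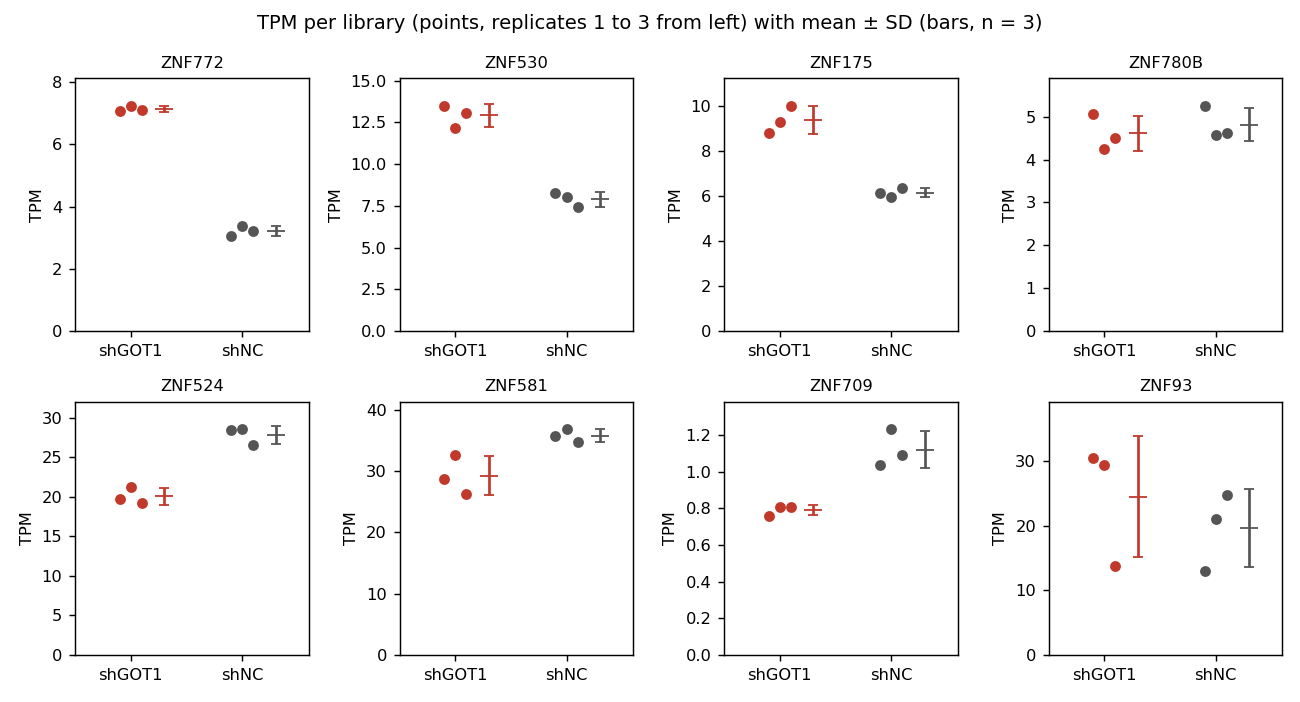
TPM in each library (vertical axes, points for replicates 1 to 3 from left) with the mean ± SD (n = 3) beside them, for shGOT1 and shNC, in 8 genes of the family. ZNF772, ZNF530 and ZNF175 lie higher and ZNF524, ZNF581 and ZNF709 lower in every shGOT1 library, while ZNF780B and ZNF93 overlap between the groups.

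The promoters of 5 of these 6 genes are shown because their calls held wherever a value was given. They let the start regions of rising and falling genes be read side by side. Each is the 250 bases before the RefSeq start on GRCh38.p14, read in the direction of the gene, and capitals mark the CCAAT box, the letters CCGGAAG that ETS factors read, or the run ACTACATT, each on either strand. ZNF772 lies at chr19:57477567-57477816 on the minus strand, ZNF175 at chr19:51571033-51571282 on the plus strand, ZNF530 at chr19:57599635-57599884 on the plus strand, ZNF709 at chr19:12484817-12485066 on the minus strand and ZNF581 at chr19:55643399-55643648 on the plus strand. The windows of ZNF709 and ZNF581 lie inside the spans the table gives for these genes (12461184 to 12513833 and 55635459 to 55645622), so they are not upstream of the whole gene as counted.
ZNF772: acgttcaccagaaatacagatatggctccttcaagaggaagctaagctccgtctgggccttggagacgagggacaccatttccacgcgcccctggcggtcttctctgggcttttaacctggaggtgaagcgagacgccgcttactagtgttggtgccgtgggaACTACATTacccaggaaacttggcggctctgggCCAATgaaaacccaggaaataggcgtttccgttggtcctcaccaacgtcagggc
ZNF530: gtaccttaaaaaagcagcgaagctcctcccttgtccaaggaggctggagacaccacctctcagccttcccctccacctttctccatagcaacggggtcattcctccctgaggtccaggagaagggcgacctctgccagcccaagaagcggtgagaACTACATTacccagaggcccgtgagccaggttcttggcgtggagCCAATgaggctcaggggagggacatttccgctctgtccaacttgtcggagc
ZNF175: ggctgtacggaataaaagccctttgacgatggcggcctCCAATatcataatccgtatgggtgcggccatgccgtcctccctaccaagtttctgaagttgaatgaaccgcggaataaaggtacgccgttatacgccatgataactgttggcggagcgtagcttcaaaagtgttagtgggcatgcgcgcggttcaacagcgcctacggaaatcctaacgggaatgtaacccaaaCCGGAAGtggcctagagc
ZNF709: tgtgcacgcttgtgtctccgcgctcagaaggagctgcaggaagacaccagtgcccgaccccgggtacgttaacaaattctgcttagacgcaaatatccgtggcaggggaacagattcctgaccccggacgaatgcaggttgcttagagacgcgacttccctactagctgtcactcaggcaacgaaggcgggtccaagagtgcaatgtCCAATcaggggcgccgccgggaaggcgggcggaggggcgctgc
ZNF581: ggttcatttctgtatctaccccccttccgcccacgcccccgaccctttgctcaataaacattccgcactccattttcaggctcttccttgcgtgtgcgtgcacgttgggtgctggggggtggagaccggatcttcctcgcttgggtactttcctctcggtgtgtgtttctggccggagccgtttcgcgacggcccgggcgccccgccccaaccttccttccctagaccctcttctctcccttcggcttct

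Each of the 4 KRAB genes among them holds 1 CCAAT, and ZNF175 also holds 1 CCGGAAG, while the window of ZNF581 has none of the marked letters. Promoters were matched for 216 of the 249 genes. CCAAT, on either strand, was in 51.4% of them. It was in 42.5% of 212 promoters of ZNF genes of other chromosomes and 34.6% of the 14667 promoters matched over the whole table. In the same order CCGGAAG was in 31.5%, 27.8% and 11.98%, and TATAAA in 1.85%, 4.25% and 8.92%. Among the family's rises CCAAT was in 9 of 18 promoters and among its falls in 2 of 12. These matches describe the letters of these windows and were not tested.

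A search made after these sequences were seen found that ZNF772 and ZNF530, both in the cluster at the end of the long arm, share a run of 16 bases, GAACTACATTACCCAG. The run, on either strand, was in 8 promoters of the family, and in 9 of all 14667. All 8 lie in that last cluster, and they belong to ZNF772, ZNF530, ZNF749, ZNF586, ZNF587B, ZNF587, ZNF814 and ZNF418. Of the 7 that were tested, 2 rose and the other 5 did not pass. The 2 rises are ZNF772 and ZNF530, which defined the run, so they are no evidence about it. Over all genes tested 21.9% were higher. ZNF749 had 11.7, 13.6 and 11.98 TPM in shGOT1, against 11.7, 9.51 and 9.74 TPM in shNC, and ZNF587 had 16.2, 15.0 and 16.8 TPM in shGOT1, against 15.5, 14.9 and 14.4 TPM in shNC, and neither passed the test. The shorter run ACTACATT was in 34 of 216 family promoters (15.7%), against 7 of 212 promoters of ZNF genes of other chromosomes (3.30%) and 1.06% of all promoters. Among the 31 tested genes with it, 4 rose and the other 27 did not pass, with a median log2 fold change of 0.09. That is 4 of 31 past the threshold, against 15.1% of the family and 44.6% of all genes tested. The 4 rises and the median include ZNF772 and ZNF530, from which the run was taken.

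Among rises with separate TPM ranges and a mean of 1 TPM or more in shGOT1, the 10 largest include 7 others. Each of these 7 lost its call under at least 1 alternative setting or left-out library. ZNF404 had 1.39, 1.47 and 1.42 TPM in shGOT1, against 0.872, 0.603 and 0.303 TPM in shNC, a log2 fold change of 1.13. ZNF614 had 6.78, 6.75 and 6.78 TPM in shGOT1, against 3.80, 2.96 and 3.89 TPM in shNC, a log2 fold change of 0.76. ZNF100 had 10.2, 9.50 and 10.3 TPM in shGOT1, against 8.68, 7.51 and 6.72 TPM in shNC, a log2 fold change of 0.42. In each of these the lowest shGOT1 library was above the highest shNC library. ZNF529, ZNF17, ZNF302 and ZNF71 rose by 0.98, 0.72, 0.56 and 0.35 on the log2 scale by counts. The counts of ZNF529 were 169, 194 and 410 in shGOT1, against 82, 104 and 127 in shNC. Its TPM were 3.70, 3.49 and 4.23 in shGOT1, against 2.41, 2.52 and 2.70 in shNC, a difference of 0.44 on log2(TPM + 1). ZNF529 overlaps ZNF382 on the other strand, and ZNF17 overlaps clone genes.

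Most of these calls stood close to the threshold. Without 1 library the adjusted p of ZNF404 (edgeR with Benjamini-Hochberg adjustment) was 0.0588 to 0.114 for shGOT1 1, 2 and 3 and shNC 2 and 3, and that of ZNF614 was 0.0562 to 0.0800 for shGOT1 1, 2 and 3. It was 0.0626 to 0.0671 for ZNF529 without shNC 1 or 2, 0.0836 to 0.0983 for ZNF17 without shGOT1 1 or 3 or shNC 1 or 3, and 0.0522 to 0.0616 for ZNF302 without shGOT1 1 or 2 or shNC 2 or 3. For ZNF71 it was 0.0596 to 0.0725 without shGOT1 2 or 3 or any shNC library. ZNF100 kept its call without each library in turn, but lost it with limma on log2(TPM + 1) after median-of-ratios scaling.

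Another 4 falls had separate TPM ranges. ZNF836, a KRAB gene with 24 fingers, had 2.50, 2.23 and 2.90 TPM in shGOT1, against 3.42, 3.79 and 4.87 TPM in shNC, and its log2 fold change was -0.83. ZNF865, with 20 fingers and no KRAB pattern, had 24.0, 24.1 and 23.5 TPM in shGOT1, against 25.1, 25.5 and 24.9 TPM in shNC, and fell by 0.18 on the log2 scale. ZNF333 fell by 0.33 and ZNF799 by 0.28. All 4 differed by less than 2-fold. The fall of ZNF836 had an adjusted p of 0.0590 to 0.0844 (edgeR with Benjamini-Hochberg adjustment) without shGOT1 2 or shNC 1 or 3, and that of ZNF799 0.0764 to 0.0903 without shGOT1 1 or 2 or any shNC library. ZNF333, ZNF799 and ZNF865 did not pass with limma on log2(TPM + 1).

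Counts and TPM parted for some members. Of the 33 called genes, 23 had separate TPM ranges in the direction of the call, and 10 had ranges that overlapped. In ZNF780B, named after its values were seen, the counts were 415, 407 and 596 in shGOT1, against 146, 168 and 162 in shNC, a log2 fold change of 1.29 ± 0.09 (SE, adjusted p = 0.00015, edgeR with Benjamini-Hochberg adjustment). Its TPM were 5.06, 4.25 and 4.51 in shGOT1, against 5.26, 4.57 and 4.61 in shNC. So the counts lay far apart while the TPM overlapped, and the difference on log2(TPM + 1) was -0.05 (adjusted p = 0.67, limma with Benjamini-Hochberg adjustment). ZNF570 was called lower from its counts with a log2 fold change of -0.37, and had 2.19, 2.27 and 2.37 TPM in shGOT1, against 2.73, 2.14 and 1.87 TPM in shNC. Its call was lost without shGOT1 1, 2 or 3 or shNC 2 or 3 (adjusted p 0.0668 to 0.127, edgeR with Benjamini-Hochberg adjustment).

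Of the genes called, 20 passed both by counts and with limma on log2(TPM + 1). The 9 that passed on TPM alone were ZNF266, ZNF492, ZNF726, ZNF345, ZNF347, ZNF134, ZNF551, ZNF274 and ZNF584.

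**Figure D4:**
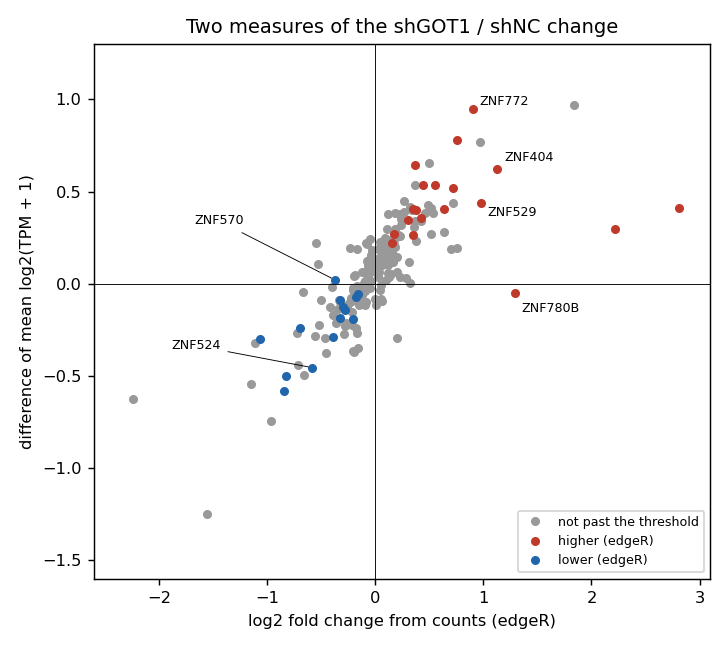
Difference of mean log2(TPM + 1) (vertical axis) against the log2 fold change from counts (horizontal axis) of shGOT1 over shNC for the 218 tested genes, coloured by the edgeR call. Most points lie near a rising line, while ZNF780B sits at 1.29 by counts and -0.05 by TPM.

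Of the called genes, 3 had under 1 TPM in both groups. ZNF30 had counts of 17, 15 and 21 in shGOT1, against 0, 0 and 6 in shNC. ZNF541 had 0.273, 0.354 and 0.243 TPM in shGOT1, against 0, 0.103 and 0.0499 TPM in shNC, and ZNF585A had 0.102, 0.120 and 0.313 TPM in shGOT1, against 0.412, 0.634 and 0.307 TPM in shNC. These rest on few counts.

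Among members with a described role, 1 of 15 passed the test, against 15.1% of the tested family and 44.6% of all genes tested. ZNF224, a KRAB protein that represses the aldolase A promoter, had 21.0, 18.3 and 22.0 TPM in shGOT1, against 24.4, 24.2 and 21.7 TPM in shNC. It fell by 0.21 on the log2 scale, its TPM ranges overlapped, and without shGOT1 1 or 2 or any shNC library its adjusted p was 0.0588 to 0.0971 (edgeR with Benjamini-Hochberg adjustment).

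The retrotransposon repressors ZNF91 and ZNF93, which act on SVA and LINE elements in human cells, did not pass. ZNF91, with 32 fingers, had 6.82, 10.9 and 10.3 TPM in shGOT1, against 12.2, 8.73 and 13.3 TPM in shNC. ZNF93 had 30.5, 29.4 and 13.7 TPM in shGOT1, against 13.0, 21.1 and 24.8 TPM in shNC. In both genes the replicates of a group spread as widely as the groups differed.

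ZNF350 (ZBRK1), a partner of BRCA1 in repression of GADD45A, had a log2 fold change of -0.05 ± 0.08 and ZNF675, an inhibitor of TRAF6 signalling, -0.05 ± 0.14 (SE). ZNF473, which takes part in processing of histone transcripts, had 11.8, 11.9 and 11.1 TPM in shGOT1, against 5.77, 10.5 and 9.58 TPM in shNC, an adjusted p of 0.186 (edgeR with Benjamini-Hochberg adjustment). The imprinted gene ZNF331 had a log2 fold change of 0.37 ± 0.15 (SE, adjusted p = 0.102, edgeR with Benjamini-Hochberg adjustment). ZNF808, which silences transposon-derived enhancers in the human pancreas, had 0.01 ± 0.29. ZNF382 had 0.119, 0.695 and 0.679 TPM in shGOT1, against 2.09, 1.66 and 0.424 TPM in shNC, with overlapping groups and a log2 fold change of -2.24 ± 0.96 (SE, adjusted p = 0.107, edgeR with Benjamini-Hochberg adjustment). With DESeq2 the adjusted p of ZNF382 was 0.0248 (Benjamini-Hochberg adjustment). Without shNC replicate 3 its log2 fold change was -2.77 (adjusted p = 0.0224), and that of ZNF331 was 0.52 (adjusted p = 0.0306, both edgeR with Benjamini-Hochberg adjustment).

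In order of position, 235 of the 249 genes fell into 10 clusters, defined as runs of at least 5 genes with no gap over 500000 bases. They hold 5, 14, 27, 36, 5, 26, 23, 40, 16 and 43 genes from the start of the chromosome to its end. Calls lay in clusters 2 to 10, while the 5 genes of cluster 1, from ZNF554 to ZNF77, had a median log2 fold change of -0.13 without a call. Among the 14 genes outside the clusters, all of them tested, 4 rose and 1 fell (35.7%, against 44.6% of all genes tested), the rises being ZNF536, ZNF780B, ZNF574 and ZNF541 and the fall ZNF333. The 36 genes of cluster 4, which runs over 4.46 Mb from ZNF101 to ZNF254 beside the centromere and holds ZNF91 and ZNF93, had 1 call among 28 tested (3.57%, against 44.6% of all genes tested), that of ZNF100. Among the 53 tested genes of other kinds that lie within the clusters, 14 passed (26.4%).

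**Figure D5:**
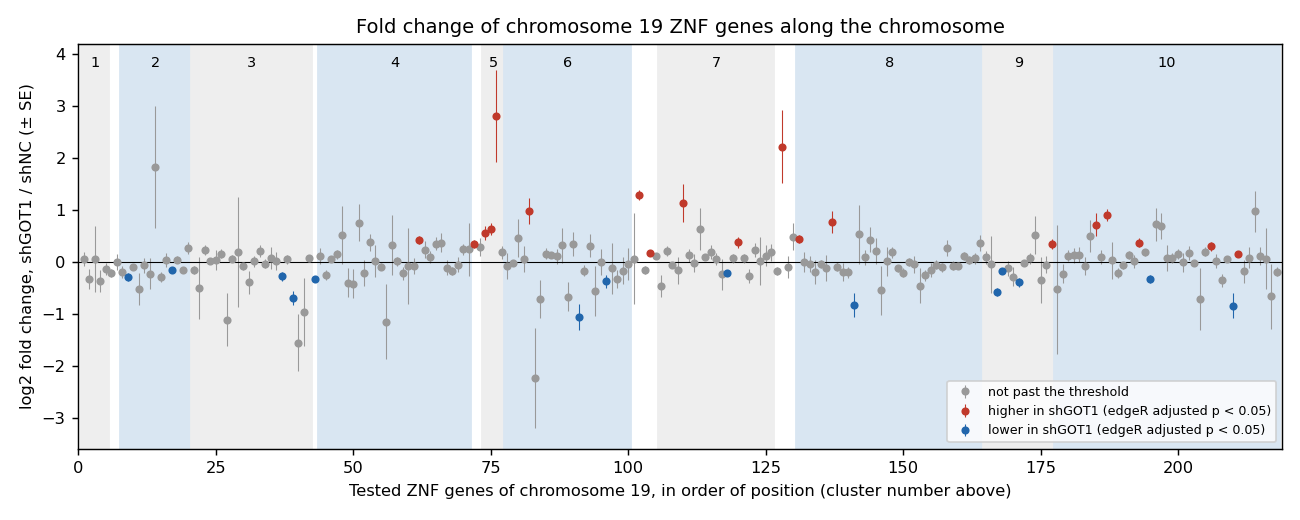
Log2 fold change of shGOT1 over shNC ± SE (vertical axis) for the 218 tested genes in order of position on chromosome 19 (horizontal axis), with the 10 clusters shaded and numbered. The 3 calls of cluster 5 are all above 0, while cluster 4 has 1 call among 28 genes.

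Cluster 5, a group of 5 KRAB genes from ZNF302 to ZNF792 within 0.286 Mb (34677639 to 34964049), had 3 rises among 4 tested, where 21.9% of all genes tested were higher. ZNF302 had 6.05, 5.63 and 5.49 TPM in shGOT1, against 4.55, 3.06 and 3.42 TPM in shNC, and ZNF181 had 3.18, 4.22 and 4.74 TPM in shGOT1, against 3.22, 2.45 and 2.72 TPM in shNC. ZNF30 was the third, at the low counts given above. ZNF792, with 4.64, 3.82 and 4.09 TPM in shGOT1, against 3.31, 3.68 and 3.07 TPM in shNC, did not pass. The summed level of the cluster was 14.4 ± 0.327 TPM in shGOT1 and 9.91 ± 1.13 TPM in shNC (SD, n = 3 each), a log2 ratio of 0.54, and no library of one group reached the range of the other. The rise of ZNF181 did not pass with limma on log2(TPM + 1).

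Cluster 10, the last on the long arm, holds 43 genes from ZNF264 to ZNF446 (57191500 to 58481230). It had 5 rises and 2 falls among 41 tested (17.1%, against 15.1% of the family and 44.6% of all genes tested), the rises being ZNF17, ZNF772, ZNF530, ZNF256 and ZNF8 and the falls ZNF211 and ZNF544. Its summed level was 335, 304 and 320 TPM in shGOT1, against 281, 267 and 275 TPM in shNC, so the groups did not overlap. The means were 320 ± 15.3 TPM in shGOT1 and 274 ± 6.94 TPM in shNC (SD, n = 3 each), a log2 ratio of 0.22 where the whole family had 0.08. The sums of clusters 5, 6 and 7, higher in shGOT1, and of cluster 1, lower, did not overlap between the groups either. Their log2 ratios were 0.54, 0.12, 0.10 and -0.08. In clusters 2, 3, 4, 8 and 9 the sums overlapped. ZNF256 had 6.32, 5.69 and 6.40 TPM in shGOT1, against 4.56, 4.89 and 4.40 TPM in shNC. ZNF544 had 0.912, 0.88 and 1.5 TPM in shGOT1, against 1.5, 2.17 and 2.80 TPM in shNC. Its fall, -0.84 on the log2 scale, was lost without shGOT1 1 or 2 or shNC 2 or 3 (adjusted p 0.0826 to 0.0864, edgeR with Benjamini-Hochberg adjustment).

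Cluster 9 (55476332 to 56671783) had 3 falls and 1 rise among 13 tested (30.8%, below the 44.6% of all genes tested), and differs from the rest in make-up, with a KRAB pattern in 5 of its 16 proteins. The 3 falls, ZNF524, ZNF865 and ZNF581, lie within a stretch of 5 neighbours between 55600022 and 55645622. Over all genes tested 22.8% were lower. This stretch runs from the start of ZNF524 to the end of ZNF581, so it was drawn around the calls and its share of falls is no result. The other two in it, ZNF784 and ZNF580, did not pass. ZNF580, which overlaps ZNF581, had 59.8, 32.1 and 64.1 TPM in shGOT1, against 55.3, 60.3 and 60.04 TPM in shNC, so 1 shGOT1 library stood below the other 5. The summed level of cluster 9 was 267 ± 5.89 TPM in shGOT1 and 279 ± 12.9 TPM in shNC (SD, n = 3 each).

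A C2H2 finger pattern was counted in the translated proteins of 247 of the 249 genes, with a median of 12 fingers and a range of 0 to 39, the highest in ZNF729. A KRAB pattern was found in 203 proteins. Among tested genes with it, 16 rose and 10 fell of 177 (14.7%), and among those without it 3 rose and 4 fell of 40 (17.5%), against 44.6% of all genes tested. Genes with the pattern had a median level of 5.16 TPM and a median transcript G+C content of 42.0%, and genes without it 10.03 TPM and 57.1%. The median number of fingers was 13 in the genes that rose and 11.5 in those that fell.

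The spread between replicates was wider in this family than over all genes tested, but not at every count level. The median coefficient of variation between replicates was 11.2% in shGOT1 and 13.0% in shNC, against 7.17% and 7.42% over all genes tested. In the lowest count quartile, with 100 of the 218 genes, it was 16.05% in shGOT1 and 17.5% in shNC, below the 18.3% and 20.6% of all genes there, and in the second it was 9.89% and 9.79%, above their 7.89% and 8.21%. In 10 genes averaging 1 TPM or more over all libraries the highest replicate of a group was 3 or more times the lowest. The share of all genes with such a spread is not given. These 10 did not pass the test, but genes picked for a wide spread between replicates are unlikely to pass it. ZNF763 had 0.174, 3.61 and 3.76 TPM in shGOT1, against 1.42, 2.77 and 4.2 TPM in shNC. ZNF627 had 6.34, 8.19 and 7.20 TPM in shGOT1, against 13.1, 2.46 and 12.7 TPM in shNC. ZNF564 had 5.83, 2.73 and 0.898 TPM in shGOT1, against 8.52, 7.21 and 7.34 TPM in shNC, an adjusted p of 0.0646 (edgeR with Benjamini-Hochberg adjustment). In each of these 3 genes a single library lay far from its 2 replicates or the replicates had no common level.

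Genes that work with the family were read from the same fit. In a list of KRAB corepressor and heterochromatin genes 6 rose and 7 fell of 28 tested (46.4%, against 44.6% of all genes tested), with a median log2 fold change of 0.02. On log2(TPM + 1) limma called 8 of these 28 higher and 1 lower, against 28.0% and 14.1% of all genes tested. TRIM28, the corepressor that KRAB domains bind, had 409, 407 and 406 TPM in shGOT1, against 326, 345 and 342 TPM in shNC, and rose by 0.16 ± 0.02 on the log2 scale (SE, adjusted p = 0.00162, edgeR with Benjamini-Hochberg adjustment). SUV39H1, a histone H3K9 methyltransferase, rose by 0.31, and DNMT1, the maintenance DNA methyltransferase, had 161, 155 and 155 TPM in shGOT1, against 187, 181 and 180 TPM in shNC, a log2 fold change of -0.33. SETDB1 was called lower by counts, with a log2 fold change of -0.17, but had 51.6, 48.9 and 49.3 TPM in shGOT1, against 44.9, 48.5 and 48.4 TPM in shNC, and its adjusted p was 0.0520 without shNC replicate 2 (edgeR with Benjamini-Hochberg adjustment). ATF7IP, a partner of SETDB1, had a log2 fold change of -0.51 by counts and overlapping TPM. It did not pass with limma on log2(TPM + 1). PPHLN1, a subunit of the HUSH complex, had a log2 fold change of 0.39. The call of ATF7IP was lost without shGOT1 2 or shNC 1 or 2 (adjusted p 0.0557 to 0.0945) and that of PPHLN1 without any 1 shNC library (adjusted p 0.0528 to 0.0726, both edgeR with Benjamini-Hochberg adjustment).

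Of the NuRD complex, a deacetylase that TRIM28 also recruits, 1 gene rose and 4 fell of 13 tested (38.5%, against 44.6% of all genes tested). On log2(TPM + 1) limma called 3 higher and 1 lower, against 28.0% and 14.1% of all genes tested. HDAC1 had 132, 131 and 135 TPM in shGOT1, against 189, 186 and 193 TPM in shNC, a log2 fold change of -0.61 ± 0.02 (SE, adjusted p = 1.17e-05, edgeR with Benjamini-Hochberg adjustment). HDAC2 rose by 0.30 by counts and its TPM overlapped between the groups, with 48.5, 63.8 and 60.2 in shGOT1, against 55.1, 32.1 and 49.2 in shNC. RBBP4, a histone-binding subunit, had a log2 fold change of -0.71 and overlapping TPM.

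Among 13 tested zinc finger genes of chromosome 19 without a ZNF number, 1 rose and 1 fell (15.4%, against 44.6% of all genes tested). KLF2, a factor that restrains activation of monocytes, had 20.2, 21.1 and 17.7 TPM in shGOT1, against 9.10, 10.8 and 9.46 TPM in shNC, a log2 fold change of 0.82. ZFP14, which lies within cluster 6, had 1.45, 1.18 and 1.66 TPM in shGOT1, against 2.54, 2.41 and 2.34 TPM in shNC, a log2 fold change of -0.66.

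In a list of zinc handling genes 8 rose and 4 fell of 22 tested (54.5%, against 44.6% of all genes tested). The zinc importers SLC39A14 and SLC39A10 rose, by 0.84 and 0.72 on the log2 scale. MTF1, the zinc-sensing factor that drives metallothionein genes, had 9.36, 8.25 and 8.80 TPM in shGOT1, against 12.2, 13.0 and 13.5 TPM in shNC, a log2 fold change of -0.66. The metallothionein MT1G had 1.09, 1.51 and 1.06 TPM in shGOT1, against 22.5, 23.4 and 25.8 TPM in shNC, a log2 fold change of -4.27 ± 0.17 (SE, adjusted p = 1.74e-05, edgeR with Benjamini-Hochberg adjustment). The metallothioneins did not move one way: MT1F and MT1X fell by 0.37 and 0.40 on the log2 scale, MT1E rose by 0.25, with 280, 290 and 271 TPM in shGOT1, against 218, 228 and 218 TPM in shNC, and MT2A, the most abundant of those listed, had a log2 fold change of -0.03 and did not pass. SLC39A14, SLC39A10, MTF1 and MT1G each had separate TPM ranges, and whether zinc levels in the cells differed was not measured.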

How the data were processed

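Poly(A)-selected RNA was sequenced from THP-1 cells, in 3 shGOT1 and 3 shNC libraries. The authors deposited 1 table with whole-number counts per gene, TPM values and FPKM values, per the file headers. FastQC, Trimmomatic, StringTie and DESeq2 were used, per the submitters' processing notes. For the aligner, the build and the strand setting nothing was found: not given in the sources used here. StringTie derives counts from coverage. Of the 249 genes, 193 have identical coordinates in GENCODE 29 (GRCh38), 94 overlap another gene of the table, 3 have read-through names and 1 (ZNF788) is a pseudogene there. Near-identical copies are common in this family, so reads may have been split between them. Coordinates of genes and clusters are those of the table.

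Counts were tested with edgeR 4.0.16 in R 4.3.3 (filterByExpr, TMM, quasi-likelihood, 2-sided, 13735 genes, Benjamini-Hochberg adjustment, threshold 0.05). DESeq2 1.42.0 and limma 3.58.1 on log2(TPM + 1) were alternatives. The steps were checked on simulated data. A call is a gene past the threshold. The SE is the log2 fold change divided by the root of the F value. Same-numbered samples did not deviate together (correlations of 0.0282, 0.00893 and -0.000322). The counts of replicate pairs differed by a chi-square of 18.2 to 21.4 per degree of freedom, so no pair was treated as 1 library deposited in duplicate. This does not show that the cultures were independent. Fingers (C-x(2 or 4)-C-x12-H-x(3 to 5)-H) and KRAB letter patterns were searched in translated GENCODE 29 transcripts. The KRAB pattern was widened after the first form, which found 142, had missed known KRAB proteins. Promoters are from RefSeq (GRCh38.p14).

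The members and lists were chosen with earlier results of these data known. Named genes are 15 members with a described role, the 10 largest rises and falls among calls with separate TPM ranges and a mean of 1 TPM or more in the higher of both groups, the 5 most abundant, the largest rise and fall past the threshold of each cluster, GOT1, up to 4 called genes of each list, and TRIM28 and SETDB1. Others are named where a count calls for it.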

Additional observations from a re-analysis of the deposited data

How the results depend on the processing

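The counts of 19 rises and 14 falls and the median of 0.01 kept within 1.5 times, or within the spread between replicates, with DESeq2, DESeq2 size factors, no filter, a minimum of 1 TPM, removal of the mitochondrial and 20 highest genes, limma after median-of-ratios scaling and plain names only. Members lower in shGOT1 were 5 with limma on log2(TPM + 1), 6 on log2(TPM + 0.1), 7 on log2(FPKM + 1) and 6 of the 133 tested members overlapping no other gene (14 of these rose). Over all genes tested the limma settings gave 1939, 1931 and 2191 falls in the same order, against 3126 in the main fit. The median log2 fold change of members was 0.10 on log2(TPM + 1) and 0.12 on log2(TPM + 0.1), where all genes shifted by 0.09 and 0.11. The replicate block gave 11 members higher in shGOT1 and 12 lower, and 2497 higher and 2725 lower over all genes tested. The replicate numbers do not pair the samples. Leaving out 1 library gave 9 to 13 members higher in shGOT1, 8 to 16 members lower and a median from -0.01 to 0.02. Over all genes tested it gave 2402 to 2592 higher and 2706 to 2767 lower, against 3002 and 3126 in the main fit. Gaps of 250000 and 1000000 bases gave 12 and 9 clusters in place of 10.

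Of values for single named genes, 740 kept direction and side of the threshold, 110 lost a call, 7 gained one and 37 changed sign, each of the last without a call under the alternative. On log2(TPM + 1), log2(TPM + 0.1) and log2(FPKM + 1) the changed values were 0.094, 0.095 and 0.055 for ZNF146, 0.13, 0.14 and 0.087 for ZNF675, 0.077, 0.085 and 0.037 for ZNF350, 0.071, 0.072 and 0.033 for ZNF787, 0.059, 0.060 and 0.021 for ZNF428, and 0.077, 0.078 and 0.039 for SETDB1. With the pseudocounts of 1 and 0.1 on TPM they were 0.013 and 0.017 for ZNF649 and 0.022 and 0.034 for ZNF570. After median-of-ratios scaling ZNF675 had 0.029. Without 1 library the values crossed 0, running from -0.039 to 0.0086 for ZNF146, -0.18 to 0.052 for ZNF675, -0.20 to 0.056 for ZNF649, -0.15 to 0.30 for ZNF808, -0.094 to 0.21 for ZNF44 and -0.13 to 0.24 for ZNF671. The cause was not tested. Few counts limit genes under 1 TPM: the SE of a called log2 fold change reached 0.88.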
